A study of Homo sapiens with 4 samples.

Results

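Caveolae, T-tubules and plasma membrane repair were followed through 10 genes, chosen by name with earlier results of these data known. They were the caveolins CAV1, CAV2 and CAV3, the cavins CAVIN1, CAVIN2, CAVIN3 and CAVIN4, the membrane-bending protein BIN1, and the ferlins DYSF and MYOF. All 10 were found by symbol among the 39323 genes of the deposited tables, whose values are TPM, a share of the library's transcripts per length of gene. A mean of 1 TPM over the libraries was needed for a gene to be tested, which 12985 genes met, among them 8 of the 10, with CAVIN2 and CAVIN3 below it. The cells were RD and JR1, established lines of fusion-negative rhabdomyosarcoma, a tumour of muscle lineage. Both lines carried a lentiviral pLKO.1-puro vector, which expressed either a non-targeting hairpin (shSCR, genotype label WT) or 1 hairpin against SKP2 (shSKP2.2, genotype label SKP2 knockdown), and all cells grew in high-glucose DMEM with serum. Each line and condition has 1 library, 4 in all, so the differences within a line rest on single libraries and are given without a test. A single fit over both lines, which takes the lines as replicates, follows them. Cells without a vector were not analysed here, and the effect of a second hairpin was not tested.

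Caveolae are flask-shaped pits of the plasma membrane. Caveolin oligomers build the pit and cavin complexes coat it, with CAVIN1 needed in most tissues and CAV3 and CAVIN4 made mainly in striated muscle. T-tubules are the inward folds that carry the action potential into the muscle fibre, and they form with the help of CAV3 and of BIN1 (amphiphysin 2), whose mutation causes a centronuclear myopathy. The ferlins are calcium-binding membrane proteins. Myoferlin (MYOF) is abundant in myoblasts and acts in their fusion, whereas dysferlin (DYSF), the protein lost in a limb-girdle muscular dystrophy, acts in resealing torn membrane of muscle fibres.

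SKP2, the targeted transcript, stood at 92.8 TPM in RD shSCR against 7.40 TPM in RD shSKP2.2, and at 46.5 TPM in JR1 shSCR against 2.72 TPM in JR1 shSKP2.2. Short structural RNAs took between 50.1% and 64.9% of the TPM, and a larger share with shSKP2.2 than with shSCR in each line. Changes were measured as log2((TPM + 1 with shSKP2.2)/(TPM + 1 with shSCR)). All tested genes had a median change of -0.27 (RD) and -0.21 (JR1), which moved to 0.10 and 0.03 once the structural RNA genes were removed and the rest rescaled. Values called centred below are relative to the first pair of medians, and values called rescaled come from the tables without structural RNA genes. Ratios between genes of the same library do not depend on either. A gene was called when it differed by at least 1 on the log2 scale, or 2-fold. The muscle lineage of the cells was checked with MYOD1, MYOG, DES, CDH15, CHRNA1 and MYMK, and all 6 reached 1 TPM. Their summed TPM was 403 (RD shSCR), 571 (RD shSKP2.2), 562 (JR1 shSCR) and 796 (JR1 shSKP2.2), of which CHRNA1 alone gave between 196 and 425 TPM. DES did not follow the sum in JR1, where it had 51.3 TPM with shSCR and 36.0 TPM with shSKP2.2.

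The 10 genes fell into a high and a low set of levels. CAVIN1, CAV1, MYOF, BIN1 and DYSF had between 22.2 and 114.8 TPM in every library, and in RD shSCR they ranged from DYSF, above 70.8% of the tested genes, to CAVIN1, above 95.6%. CAV2, CAV3 and CAVIN4 never passed 5.86 TPM, and CAVIN2 and CAVIN3 never passed 0.62 TPM. With shSCR the order from the top was CAVIN1, MYOF and CAV1 in both lines, followed by BIN1 and DYSF in RD and by DYSF and BIN1 in JR1. With shSKP2.2 BIN1 took the second place in RD, behind CAVIN1, and the first place in JR1. MYOF stood behind 3 of the 10 genes in both shSKP2.2 libraries. The spread around each level is unknown, so it cannot be said which neighbours in this order differ. Summed over the 10 genes, the libraries held 320, 300.5, 312 and 307 TPM, in the order RD shSCR, RD shSKP2.2, JR1 shSCR and JR1 shSKP2.2.

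**Figure D1:**
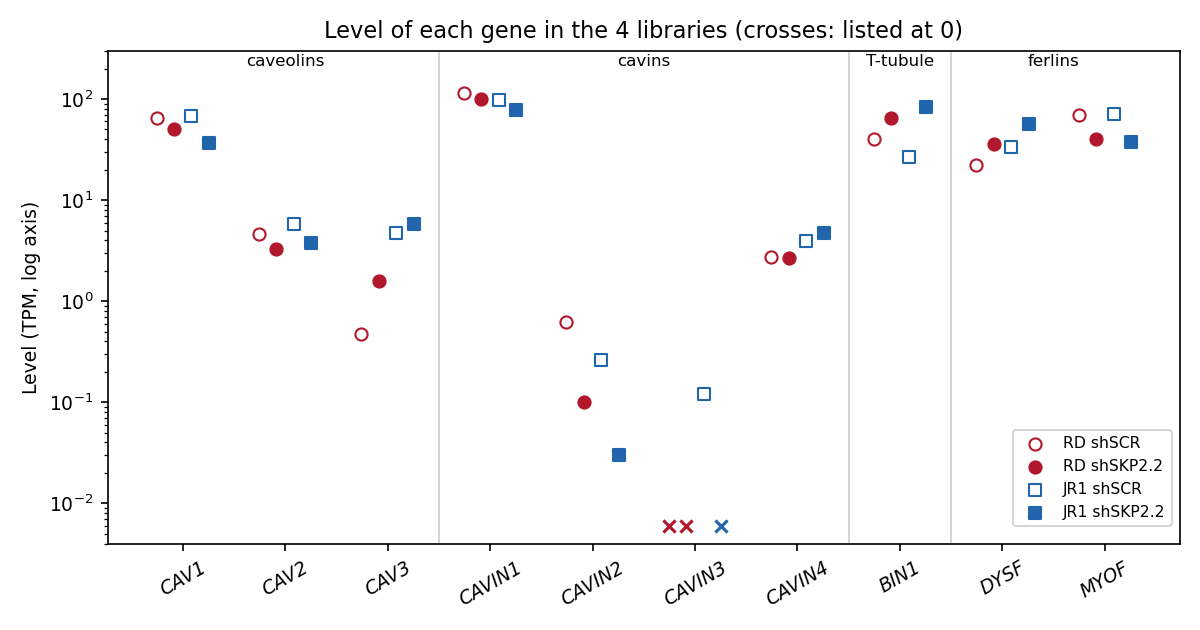
Level of each of the 10 genes (TPM, log axis) in the 4 libraries, 1 point per library, with open symbols for shSCR, filled symbols for shSKP2.2, circles for RD and squares for JR1. Crosses mark values listed at 0. BIN1 and DYSF are higher with shSKP2.2 in both lines, MYOF is lower, and CAVIN2 and CAVIN3 lie under 1 TPM throughout.

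The promoters of the genes with a change above 0 in both lines, centred and rescaled values included (BIN1, DYSF and CAV3) are shown beside those of MYOF, which was lower in both, and of CAV1, which was lower in JR1. RefSeq windows of 300 bases, from 250 bases before to 50 bases after a start, were matched by symbol for 8 of the 10 genes (build GRCh38.p14). They were searched for CAGCTG, a palindromic E-box, for CACCTG and the MEF2 consensus on both strands, and for TATAAA on the sense strand. CAGCTG and CACCTG cannot match at the same position, whereas TATAAA can overlap a MEF2 match. The printed bases lie before the start, 5′ to 3′ on the strand of the gene, without those in a GENCODE exon, and capitals mark CAGCTG and MEF2 matches.
BIN1, chr2:127107289-127107404, minus strand: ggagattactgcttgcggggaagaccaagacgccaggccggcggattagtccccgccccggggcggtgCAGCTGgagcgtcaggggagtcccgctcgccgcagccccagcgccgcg
DYSF, chr2:71453311-71453560, plus strand: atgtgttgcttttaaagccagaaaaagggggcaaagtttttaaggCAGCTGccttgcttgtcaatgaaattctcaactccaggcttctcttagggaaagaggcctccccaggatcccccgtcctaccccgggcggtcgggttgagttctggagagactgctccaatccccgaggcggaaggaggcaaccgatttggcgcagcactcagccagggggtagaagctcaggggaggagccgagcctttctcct
CAV3, chr3:8733552-8733801, plus strand: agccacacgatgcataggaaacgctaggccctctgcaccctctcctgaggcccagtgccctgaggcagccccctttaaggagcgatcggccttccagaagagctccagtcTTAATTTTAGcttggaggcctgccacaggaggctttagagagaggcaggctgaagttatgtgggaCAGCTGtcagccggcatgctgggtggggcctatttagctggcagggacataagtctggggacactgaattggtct
MYOF, chr10:93482335-93482584, minus strand: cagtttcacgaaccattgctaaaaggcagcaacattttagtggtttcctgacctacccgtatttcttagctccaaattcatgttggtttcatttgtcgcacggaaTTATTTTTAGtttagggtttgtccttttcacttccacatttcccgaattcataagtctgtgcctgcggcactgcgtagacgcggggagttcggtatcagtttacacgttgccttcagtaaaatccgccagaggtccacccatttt
CAV1, chr7:116524759-116524993, plus strand: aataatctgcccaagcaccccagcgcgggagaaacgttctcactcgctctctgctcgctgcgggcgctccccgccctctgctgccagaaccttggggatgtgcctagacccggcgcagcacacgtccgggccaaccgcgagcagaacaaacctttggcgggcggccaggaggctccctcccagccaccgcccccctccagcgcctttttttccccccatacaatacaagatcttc
CAGCTG stood 182 bases before the start of BIN1, 205 bases before that of DYSF and 75 bases before that of CAV3. A MEF2 match began 140 bases before the start of CAV3 and 145 bases before that of MYOF. The CAV1 windows held none of the 4 words. CAGCTG also occurred in a window of CAV2 and in that of CAVIN2, which are not printed, so the word was not confined to genes that rose. CAV2 was lower in both lines as deposited, at -0.40 (RD) and -0.50 (JR1), and also centred and rescaled. CAVIN2, not tested, had 0.62 TPM with shSCR and 0.10 TPM with shSKP2.2 in RD, and 0.26 and 0.03 TPM in JR1. CAVIN4 held TATAAA and a MEF2 match. Of all 35116 windows of this length 17.9% held CAGCTG, 20.6% held CACCTG, 7.33% held TATAAA and 2.99% held a MEF2 match. These are matches of letters and not measured sites. In the deposited tables the genes DYSF and MYOF begin upstream of the RefSeq starts used here, so that all of the first window and part of the second lie inside those spans.

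BIN1, on chromosome 2 between bases 127048023 and 127107154, had the largest change of the 10 genes in JR1. Its level was 40.1 TPM in the shSCR library of RD and 65.6 TPM in its shSKP2.2 library. In JR1 the shSCR library had 26.7 TPM and the shSKP2.2 library 84.0 TPM. Both shSKP2.2 libraries were thus above both shSCR libraries. On the log2 scale the change came to 0.69 for RD, a TPM ratio of 1.63, and to 1.62 for JR1, a TPM ratio of 3.14. BIN1 was the only member called in JR1, 1 of 8 tested, where 1.78% of all tested genes were called higher, 9.05% lower and 10.8% in either direction. In RD 0 of 8 were called in either direction, against a background of 1.08% higher, 7.37% lower and 8.45% in all. BIN1, DYSF and CAV3 passed the limit in RD after rescaling, at 1.10, 1.07 and 1.42, where the background was 3.80% higher and 3.42% lower. In JR1 the rescaled background was 4.71% higher and 6.74% lower. Of all tested genes, 97.8% had a lower change than BIN1 in RD and 99.4% had one in JR1. The values sum all isoforms, so the muscle isoform of BIN1 was not told apart from the others. In these bulk samples RNA per cell and the share of cells with the RNA cannot be told apart.

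**Figure D2:**
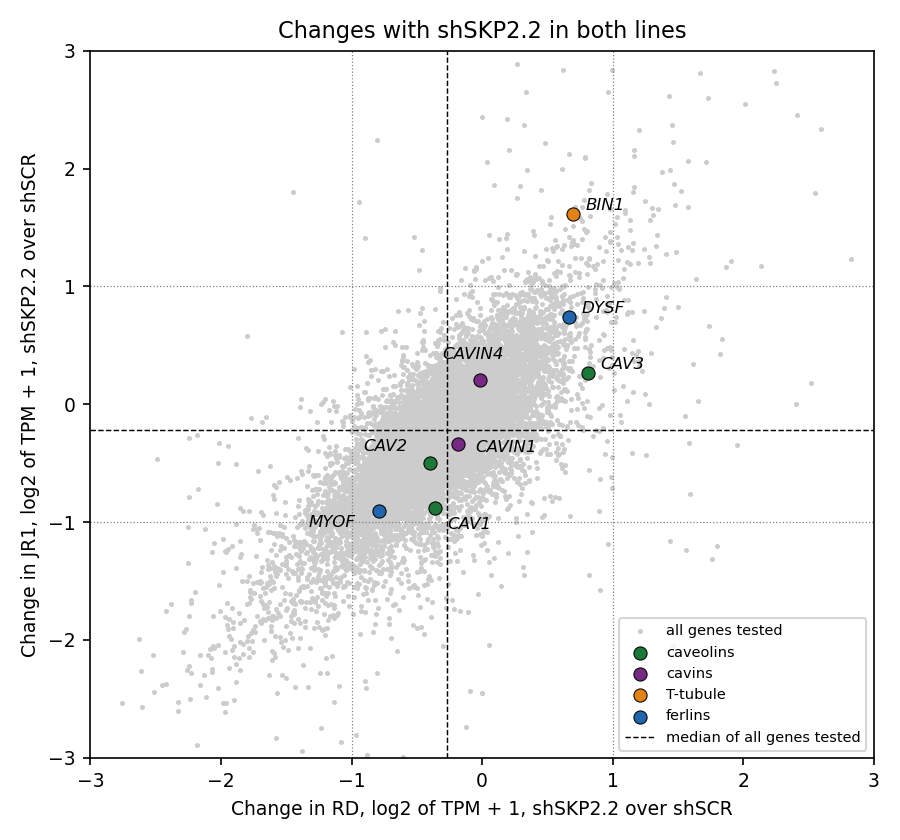
Change with shSKP2.2 (log2 ratio of TPM + 1) in RD on the x axis and in JR1 on the y axis, with the 8 tested members coloured by role, all tested genes in grey (78 lie outside the axes), the medians of all tested genes dashed and the 2-fold limits dotted. BIN1, DYSF, CAV3 and CAVIN4 lie above both medians, MYOF, CAV1 and CAV2 below both, and BIN1 alone passes a limit.

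A list of 10 other T-tubule and triad genes, with JPH1, JPH2, MTM1, SPEG, CACNA1S, RYR1, STAC3, TRDN and TCAP among them, had 7 that were tested. In RD 0 were called, beside 1.08% of all tested genes called higher and 7.37% lower. In JR1 2 were called higher and 0 lower, beside 1.78% and 9.05% of all tested genes. The median change of the tested list genes, TRDN included, was 0.08 (RD) and 0.60 (JR1), beside -0.27 and -0.21 for all tested genes. TRDN encodes triadin of the calcium release complex. It rose in JR1, with 0.47 TPM for shSCR, 5.84 TPM for shSKP2.2 and a change of 2.22. In RD it was listed at 0 with shSCR and at 0.40 TPM with shSKP2.2. TRDN was tested only through JR1 shSKP2.2, since the other libraries had a mean of 0.29 TPM, so its call lends no weight to the count. JPH1 encodes junctophilin 1, a tether between T-tubule and sarcoplasmic reticulum. It rose in JR1, with 1.77 TPM for shSCR, 5.14 TPM for shSKP2.2 and a change of 1.15. In RD the libraries had 2.45 and 2.34 TPM of JPH1, a change of -0.05 that was 0.22 centred and 0.28 rescaled.

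DYSF and MYOF differed in the sign of their change in both lines. DYSF lies on chromosome 2 between bases 71453154 and 71686763. RD had 22.2 TPM of it with shSCR and 35.7 TPM with shSKP2.2, and JR1 had 33.4 and 56.4 TPM. This gave a change of 0.66 for RD and 0.74 for JR1, or TPM ratios of 1.61 and 1.69. MYOF lies on chromosome 10 between bases 93306429 and 93482505. RD had 69.98 TPM of it with shSCR and 40.2 TPM with shSKP2.2, and JR1 had 70.5 and 37.2 TPM. The lines thus had near levels of MYOF under each hairpin. The change of MYOF was -0.79 for RD and -0.90 for JR1, centred values were -0.52 and -0.69, and rescaled values -0.40 and -0.63. Neither ferlin was called with the TPM as deposited, and rescaled DYSF passed the limit in both lines, at 1.07 and 1.03.

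Within a library DYSF and MYOF can be set against each other, since TPM are per length. The ratio of DYSF over MYOF was 0.317 for RD shSCR and 0.889 for RD shSKP2.2. For JR1 it was 0.474 with shSCR and 1.51 with shSKP2.2. It was thus 2.81 times as high with shSKP2.2 in RD and 3.19 times as high in JR1. DYSF made up 24.1% of the summed TPM of both ferlins in RD with shSCR and 47.1% with shSKP2.2, and in JR1 32.2% and 60.2%. MYOF was the leading ferlin in 3 libraries and DYSF in JR1 shSKP2.2. Both together had 92.1 and 75.9 TPM in RD, and 103.9 and 93.6 TPM in JR1. The remaining ferlins OTOF, FER1L5 and FER1L6 were not tested, and FER1L6 reached at most 0.15 TPM and OTOF at most 0.05 TPM.

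**Figure D3:**
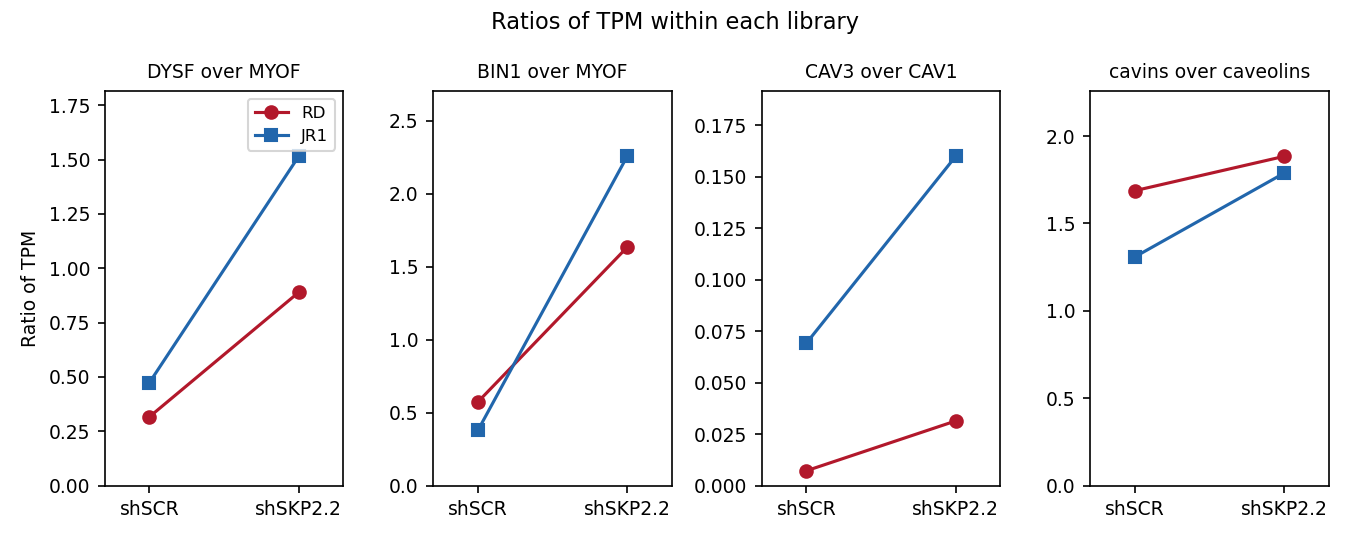
Ratios of TPM within each library, with shSCR on the left and shSKP2.2 on the right of each panel, circles for RD and squares for JR1, 1 library per point, and a y axis that starts at 0 in every panel. DYSF over MYOF is 0.317 and 0.889 for RD and 0.474 and 1.51 for JR1, and the lines cross only for BIN1 over MYOF.

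The ratio of BIN1 over MYOF was 0.573 and 1.63 for RD, with shSCR and shSKP2.2 in this order, and 0.379 and 2.25 for JR1. With shSKP2.2 it was 2.85 times as high in RD and 5.95 times as high in JR1. This pair was chosen after the values were seen.

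When both lines entered 1 limma fit with the line as a block, 4 of the 8 tested members passed an adjusted p of 0.05, where 30.5% of all tested genes did. These members were BIN1, DYSF, MYOF and CAV1. Of all genes that passed, 499 were higher with shSKP2.2 and 3456 were lower. The mean change of DYSF was 0.70 (95% interval 0.40 to 1.00, limma adjusted p = 0.00946), and that of MYOF was -0.84 (-1.15 to -0.54, limma adjusted p = 0.0055). BIN1 had a mean change of 1.16 (0.63 to 1.69, limma adjusted p = 0.0117) and CAV1 one of -0.62 (-1.01 to -0.23, limma adjusted p = 0.0307). With rescaled values 21.4% of all genes passed, 1608 higher and 1541 lower. Again 4 members passed, with CAV3 in place of CAV1. CAV3 then had a limma adjusted p of 0.0361 and CAV1 one of 0.258. BIN1, DYSF and MYOF passed with either set of values and had the same sign in both lines. The fit has 1 residual degree of freedom. Its p-values and intervals rest in part on a variance that limma shares over genes of similar level, and not only on the gene's own spread. That variance is one between these lines and not between cultures of a line.

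The other genes of membrane repair were on a list of 18, with TRIM72, annexins, their S100 partners, calpains, AHNAK, SYT7 and genes of the ESCRT machinery among them, and 17 were tested. In RD 0 were called, beside 1.08% of all tested genes called higher and 7.37% lower. In JR1 1 was called higher and 0 lower, beside 1.78% and 9.05% of all tested genes. The median change of the tested list genes, CAPN3 included, was -0.26 (RD) and -0.25 (JR1). This was 0.0071 above and 0.036 below the median of all tested genes. The called gene was CAPN3, the muscle calpain. It rose in JR1, with 0.38 TPM for shSCR, 2.45 TPM for shSKP2.2 and a change of 1.32. In RD it had 0.62 and 1.28 TPM, a change of 0.49. CAPN3 too was tested only through JR1 shSKP2.2, since the other libraries had a mean of 0.76 TPM, so its call lends no weight to the count.

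Among the caveolins most of the RNA was CAV1, the main caveolin of non-muscle cells. RD had 64.9 TPM of CAV1 with shSCR and 50.3 TPM with shSKP2.2, and JR1 had 68.2 and 36.6 TPM. The change was -0.88 for JR1, where it stayed below 0 centred, at -0.66, and rescaled, at -0.60. For RD it was -0.36, with -0.09 centred and 0.03 rescaled, so its sign depended on the scaling. CAV2, a partner of CAV1, lies next to it on chromosome 7. CAV2 spans bases 116499738 to 116508541 and CAV1 bases 116525009 to 116561185, with 16467 bases between them. RD had 4.63 TPM of CAV2 with shSCR and 3.28 TPM with shSKP2.2, and JR1 had 5.76 and 3.78 TPM, for changes of -0.40 and -0.50. Centred these were -0.13 and -0.29, and rescaled -0.09 and -0.29. CAV1 over CAV2 gave 14.0 and 15.3 for RD and 11.8 and 9.69 for JR1.

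CAV3, the muscle caveolin, had more RNA with shSKP2.2 than with shSCR in either line, and more in JR1 than in RD. It lies on chromosome 3 between bases 8733802 and 8746758. Its level was 0.47 TPM (shSCR) and 1.58 TPM (shSKP2.2) for RD, and 4.72 TPM (shSCR) and 5.86 TPM (shSKP2.2) for JR1. Both RD libraries were thus below both JR1 libraries. The change was 0.81 for RD and 0.26 for JR1. For RD it passed the limit centred, at 1.08, and with 0.1 TPM added in place of 1, at 1.56. SSUH2, which overlaps CAV3 in the deposited tables, had at most 0.14 TPM. Of the caveolin TPM, CAV3 made up 0.671% and 2.87% in RD, with shSCR and shSKP2.2 in this order, and 6.0% and 12.7% in JR1. CAV3 over CAV1 was 4.34 times as high with shSKP2.2 in RD and 2.31 times as high in JR1. CAV1 still held 91.2% of the caveolin TPM in RD shSKP2.2 and 79.2% in JR1 shSKP2.2. Summed, the caveolins had 70.02 and 55.1 TPM in RD, and 78.7 and 46.3 TPM in JR1.

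**Figure D4:**
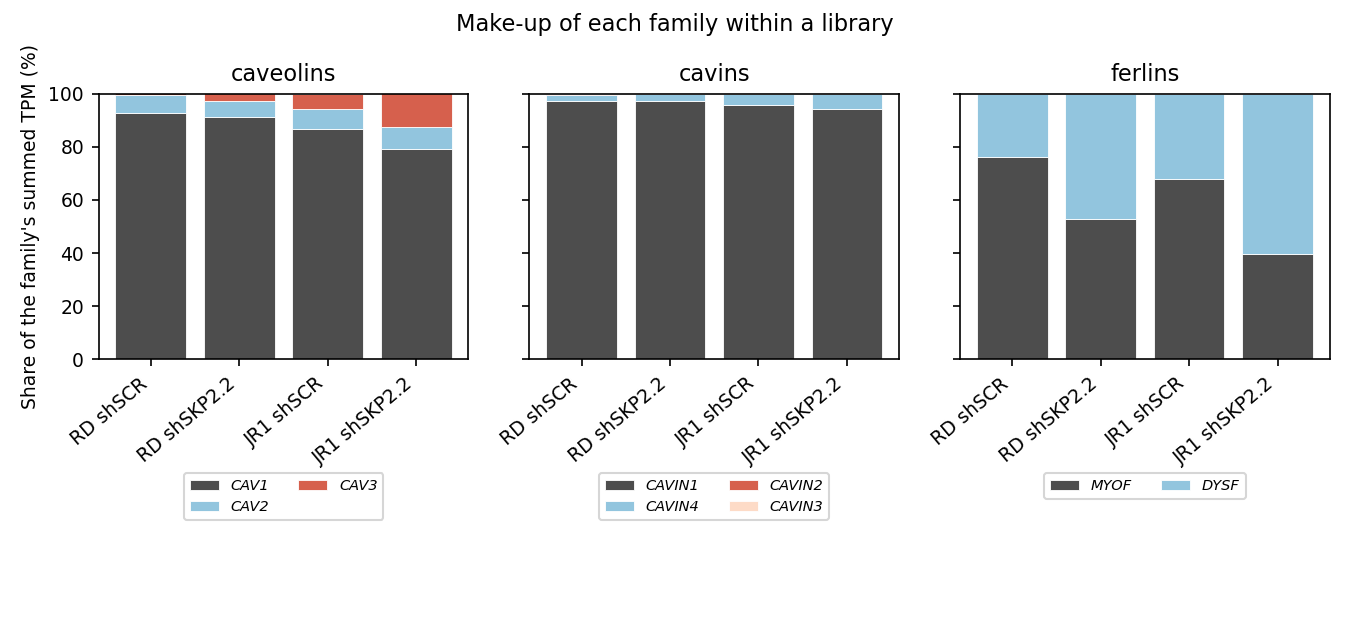
Share of each gene in the summed TPM of its family (percent, stacked to 100) in each of the 4 libraries, for the caveolins, the cavins and the ferlins. DYSF makes up 24.1% and 47.1% of the ferlins in RD and 32.2% and 60.2% in JR1, CAV3 reaches 12.7% of the caveolins in JR1 shSKP2.2, and CAVIN1 holds at least 94.3% of the cavins in every library.

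Among the cavins nearly all RNA was CAVIN1, with between 94.3% and 97.3% of the cavin TPM. CAVIN1 lies on chromosome 17 between bases 42402449 and 42423269 and was first or second of the 10 genes in every library. RD had 114.8 TPM of it with shSCR and 101.1 TPM with shSKP2.2, and JR1 had 98.6 and 78.0 TPM. For RD this was a change of -0.18, which turned to 0.09 centred and 0.22 rescaled, and for JR1 one of -0.33, with -0.12 centred and -0.05 rescaled. CAVIN4, the muscle cavin, lies on chromosome 9 between bases 100578079 and 100588389. RD had 2.72 TPM of it with shSCR and 2.67 TPM with shSKP2.2, and JR1 had 3.95 and 4.72 TPM. The change was 0.21 for JR1 and -0.02 for RD, where it turned to 0.25 centred and 0.32 rescaled. CAVIN4 made up 2.30% and 2.57% of the cavin TPM in RD, and 3.84% and 5.71% in JR1.

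CAVIN2 and CAVIN3 were at the low end in all libraries. CAVIN2, on chromosome 2 between bases 191834310 and 191847088, had 0.62 and 0.10 TPM in RD and 0.26 and 0.03 TPM in JR1. CAVIN3, on chromosome 11 between bases 6318946 and 6320501, was listed at 0 in 3 libraries and at 0.12 TPM in JR1 shSCR. The summed cavins over the summed caveolins gave 1.69 for RD shSCR, 1.88 for RD shSKP2.2, 1.31 for JR1 shSCR and 1.79 for JR1 shSKP2.2. This ratio was 1.12 times as high with shSKP2.2 in RD and 1.37 times as high in JR1.

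A list of 9 other caveola genes held the membrane ATPases EHD1, EHD2 and EHD4, the F-BAR proteins PACSIN2 and PACSIN3, ROR1, DNM2 and the flotillins FLOT1 and FLOT2, and 8 of them were tested. In each line 1 was called lower and 0 higher, beside 7.37% (RD) and 9.05% (JR1) of all tested genes called lower, and it was PACSIN3 both times. PACSIN3 fell in RD, with 13.8 TPM for shSCR and 4.96 TPM for shSKP2.2, and in JR1, with 13.4 and 5.14 TPM. The changes were -1.31 and -1.23, and they stayed past the limit centred and rescaled. The median change of the list was -0.34 (RD) and -0.21 (JR1).

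**Figure D5:**
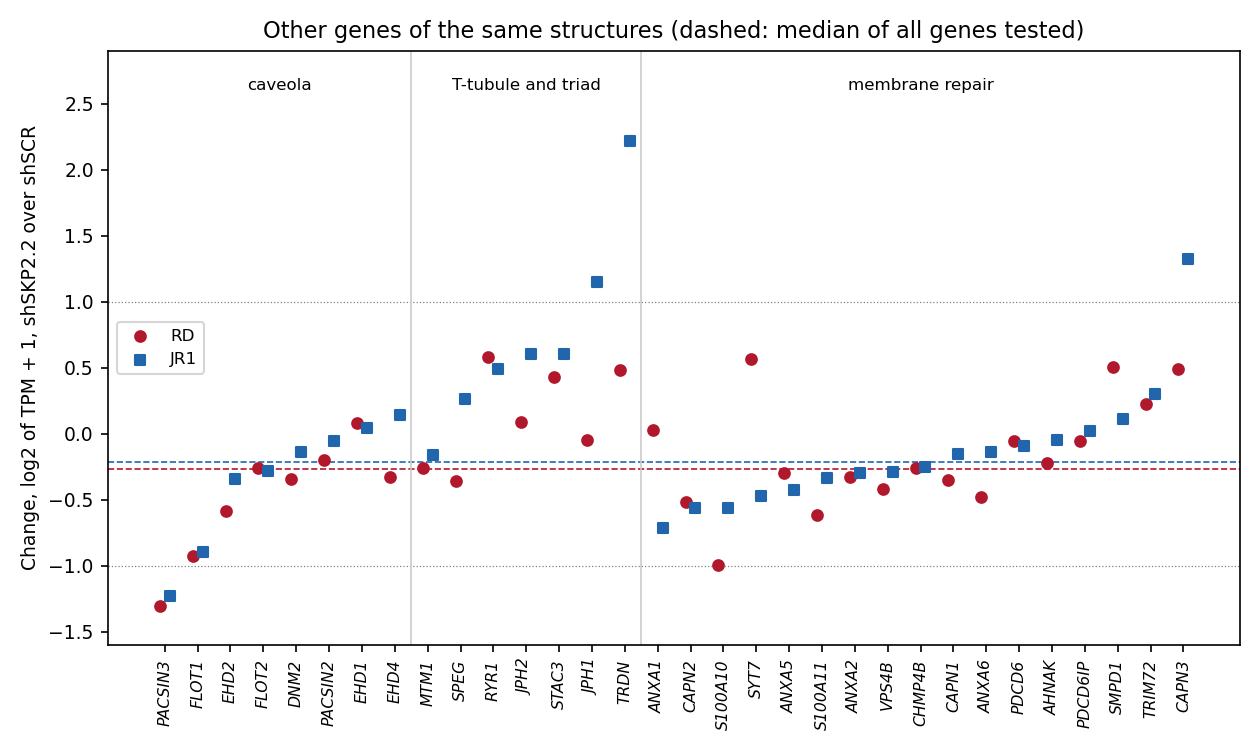
Change with shSKP2.2 (log2 ratio of TPM + 1) of the 32 tested genes on the caveola, T-tubule and membrane repair lists, sorted within each list by the change in JR1, with circles for RD, squares for JR1, dashed lines at the median of all tested genes of each line and dotted lines at the 2-fold limit. PACSIN3 lies under -1 in both lines, and TRDN, JPH1 and CAPN3 lie above 1 in JR1. TRDN and CAPN3 were tested only through JR1 shSKP2.2.

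RD and JR1 differed most in CAV3. With shSCR 1 of the 8 tested members was called lower in RD than in JR1 and 0 higher, against a background of 3.45% lower, 6.5% higher and 9.95% in all. With shSKP2.2 the counts were again 1 and 0, against 2.7%, 5.39% and 8.09%. The called member was CAV3 both times, with a log2 ratio of TPM + 1, RD over JR1, of -1.96 for shSCR and -1.41 for shSKP2.2. It passed the limit centred, rescaled and with 0.1 TPM added. The ratio for DYSF was -0.57 and -0.64, and that for CAVIN4 -0.41 and -0.64. BIN1 was higher in RD with shSCR, at 0.57, and lower in RD with shSKP2.2, at -0.35, and both signs held centred and rescaled. CAV1 was at -0.07 and 0.45, and MYOF at -0.01 and 0.11, the latter turning to -0.07 centred. The same ratio had a median over all tested genes of 0.23 for shSCR and 0.17 for shSKP2.2. These comparisons share libraries with those between the hairpins.

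Markers of other cell types that are rich in caveolae were mostly near 0. Of 5 adipocyte genes, ADIPOQ and LEP were listed at 0 throughout and the summed TPM of the list was at most 0.24. Of 6 endothelial genes, KDR was listed at 0 throughout, CDH5 had at most 0.02 TPM and PECAM1 at most 0.05 TPM. Summed, the endothelial list had 6.77 and 4.78 TPM in RD and 6.64 and 3.93 TPM in JR1, most of it from TEK. Of 6 fibroblast genes 3 reached 1 TPM in any library, FAP was listed at 0 throughout, and DCN and PDGFRA had at most 0.06 TPM. Summed, the fibroblast list had 341 and 88.7 TPM in RD and 457 and 80.8 TPM in JR1, most of it from COL1A1 and THY1. The part of these genes, and of the muscle genes above, in the values of the 10 genes was not tested.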

How the data were processed

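Poly-A RNA of RD and JR1 cells was sequenced from 1 directional library per line and condition. Per the labels and the study's methods, the authors used STAR 2.7.9a (GRCh38) and then RSEM 1.3.2, and deposited TPM per gene with 2 decimals. Read counts cannot be had from TPM, so the depth is unknown and no counting error can be given. The strand setting of RSEM is not given in the sources used here. Gene spans were printed as deposited.

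Changes were log2 ratios of TPM + 1 within a line, tested means a mean TPM of at least 1, and the limit was 2-fold. Alternatives were 0.1 TPM added, centring on the median, removal of 636 short structural RNA genes with rescaling, all genes above 0 TPM, a minimum of 5 TPM and a limit of 1.5-fold. All members are named, and of each list up to 4 genes past the limit in either line, or else the 2 with the highest mean TPM. The members and lists were chosen with earlier results of these data known. Promoters came from RefSeq and exons from GENCODE. A fit over both lines (limma on log2(TPM + 1), line as a block, trend, Benjamini-Hochberg adjustment over all tested genes), run on deposited and rescaled TPM, was added after the data were seen. Software was R 4.3.3, limma 3.58.1, Python 3.11.15, numpy 2.4.6, pandas 2.3.3 and matplotlib 3.10.9.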

Additional observations from a re-analysis of the deposited data

Results flagged for a closer look

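For some genes the change with shSKP2.2 had one sign in RD and the other in JR1. None of these differences was tested, since each rests on 4 single libraries, and several depended on the scaling. Among the members this was CAVIN4, where RD minus JR1 gave -0.23 on the log2 scale, and the sign no longer differed centred or rescaled. Among the T-tubule genes it was JPH1, at -1.20, and SPEG, a kinase of the triad, at -0.62. JPH1 likewise had 1 sign in both lines centred or rescaled, and SPEG rescaled, at 0.04 and 0.55. Among the caveola genes it was EHD4, at -0.47, which had 1 sign rescaled, at 0.06 and 0.43. Among the membrane repair genes it was ANXA1, at 0.74, SYT7, a calcium sensor of lysosome exocytosis, at 1.04, and PDCD6IP (ALIX), at -0.079. PDCD6IP had 1 sign in both lines centred, at 0.21 and 0.23, and rescaled, at 0.33 and 0.30. ANXA1, an annexin that binds membrane in the presence of calcium, had 131 and 134 TPM in RD, with shSCR and shSKP2.2 in this order, and 115.7 and 69.9 TPM in JR1, and its changes still differed in sign centred, at 0.29 and -0.50. SYT7 had 1.01 and 1.98 TPM in RD, and 3.09 and 1.95 TPM in JR1.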

How the results depend on the processing

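Within a line no paired analysis was possible, because each condition has 1 library there, which shares a single replicate number with the other. For the same reason none could be left out there. Across the lines, 0 members were called 2-fold in both with the TPM as deposited. Rescaled, BIN1 (1.10 in RD and 1.92 in JR1) and DYSF (1.07 and 1.03) passed the limit in both. The share of all tested genes past it in both lines was not counted. A limma fit with the line as a block, which pairs the libraries of each line, called 4 with deposited or rescaled TPM, beside 30.5% and 21.4% of all tested genes. It was added after the data were seen. Of the members, 0 were called higher in RD as deposited, 1 with 0.1 TPM added or centred, and 3 rescaled or with a limit of 1.5-fold. Of all tested genes 1.08% were called higher in RD as deposited, 2.15% with 0.1 TPM added, 2.09% centred, 3.80% rescaled and 3.20% with a limit of 1.5-fold. In JR1 1 was called higher, and 2 rescaled or with a limit of 1.5-fold, where 4.71% and 5.31% of all tested genes were. That limit also gave 1 called lower in RD and 2 in JR1, beside 23.2% and 23.4% of all tested genes, where the 2-fold limit gave 0. CAV3, called lower in RD than in JR1, was not tested at a minimum of 5 TPM, which left 0 called with either hairpin. Of all tested genes 2.87% (shSCR) and 2.31% (shSKP2.2) were then called lower in RD. A limit of 1.5-fold gave 1 called lower in RD with shSCR and 3 with shSKP2.2, beside 7.02% and 5.799% of all tested genes. Of the other genes on the lists, 0 were called higher in RD, 1 with 0.1 TPM added and 2 rescaled. The shares of all tested genes were 1.08%, 2.15% and 3.80%, in this order. The 1 was TRDN, at 2.32, which was also among the 2, at 1.04. Since TRDN was tested only through JR1 shSKP2.2, its calls lend no weight to these counts. In JR1 3 were called higher, 5 with a limit of 1.5-fold and 0 at a minimum of 5 TPM. The shares of all tested genes were 1.78%, 5.31% and 1.60%, in this order. TRDN and CAPN3, which are among the 3, were tested only through JR1 shSKP2.2, so their calls lend no weight to the count. In RD 1 was called lower, 2 with 0.1 TPM added and 5 with a limit of 1.5-fold. Of all tested genes 7.37%, 10.9% and 23.2% were, in this order. In JR1 1 was called lower and 3 with a limit of 1.5-fold, beside 9.05% and 23.4% of all tested genes. Among the 8 tested members, the sign of the change in RD turned for CAVIN1 and CAVIN4 centred and rescaled, and for CAV1 rescaled. In JR1 0 signs turned. Between the lines the sign turned when centred for CAVIN1 with shSCR and for MYOF with shSKP2.2. Including all genes above 0 TPM left every count of called genes as it was. The cause of the moves under rescaling was not tested.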

Other observations

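These genes were chosen after their values were seen. FLOT1, a flotillin of membrane microdomains, had 118.6 and 61.9 TPM in RD, with shSCR and shSKP2.2 in this order, and 52.96 and 28.0 TPM in JR1. Its changes of -0.93 and -0.90 were inside the limit in both lines, and rescaled they were -0.53 and -0.63. S100A10, the partner of annexin A2, had 251 and 125 TPM in RD and 247 and 167 TPM in JR1. Its change of -0.998 in RD was also inside the limit, and rescaled it was -0.60. RYR1, the calcium release channel that faces the T-tubule, had 20.2 and 30.6 TPM in RD and 18.8 and 26.8 TPM in JR1, changes of 0.58 and 0.49. STAC3, an adaptor of the voltage sensor in the T-tubule, had 30.2 and 41.02 TPM in RD and 43.7 and 66.8 TPM in JR1, changes of 0.43 and 0.60.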
